A study of Mus musculus with 2 samples.

Results

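The MHC class II genes and their regulator Ciita were examined in RNA-seq libraries of colonies/organoids that mouse mammary basal cells had formed in 3D culture with or without TNF-α. The 7 genes Cd74, H2-Aa, H2-Ab1, H2-Eb1, H2-DMa, H2-DMb1 and Ciita were taken by name from the 49492 genes of the deposited count table. They were chosen by an analysis in which the counts of these same libraries were already known, so their difference between the libraries is given as a description. Calls by the rule applied to every gene of the table are printed for them only to place them among all genes, and are no test of the members. Each condition was represented by a single library. Both are labelled as wild-type primary epithelial cells of the mammary gland, and the methods describe basal cells of adult female mice sorted as CD24+CD29hi and negative for CD45, CD31 and TER119. Both were grown in matrix gel for 10 days according to the series record, in a medium with EGF and a supplement of insulin, transferrin and selenium. The control received no treatment, and TNF-α was added to the other culture at 10 ng/mL. How many mice gave cells to each library is not given in the sources used here. Without a second library no difference has a replicate check, and the intervals below cover counting error only. PCR copies of a molecule cannot be separated in these reads, and reads of a pair may have been counted singly. Where this holds, the reads are not independent, so the intervals can be too narrow and the calls too many.

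MHC class II molecules are pairs of an α and a β chain that present peptides from the endosome to CD4+ T cells. In the mouse, H2-Aa and H2-Ab1 encode the chains of I-A, and H2-Eb1 encodes the β chain of I-E. The invariant chain, encoded by Cd74, fills the peptide groove of new class II molecules and directs them to endosomes. There H2-DM, made of the products of H2-DMa and H2-DMb1, exchanges the remnant of the invariant chain for peptide. Ciita encodes the coactivator that switches these genes on. It does not bind DNA itself and is recruited by RFX, CREB and NF-Y proteins on the X and Y boxes of class II promoters. Dendritic cells, macrophages and B cells carry class II at rest, while many epithelial cells acquire it after interferon-γ, in part through IRF1.

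Promoter windows are shown for class II region genes, some but not all of which held the same short elements. RefSeq windows (GRCm38.p6, 250 bases before to 50 bases after the start) were listed for 8 genes among the members and the other class II genes of the region. H2-Ab1, Ciita and H2-Ea-ps had no entry, and Cd74, the member with the highest ratio, was left out of the search. GNAAC is the core of the X box and TGATTGG the core of the Y box. The pair was GNAAC followed after 15 to 40 bases on the same strand by TGATTGG. In the 8 genes the pair was searched on the strand of the gene, and TGATTGG by itself on both strands. Over all windows, both searches covered both strands. The letters were chosen after the sequences had been seen, so a match in these 8 genes is no test. The pair was found in 6 of the 8 genes and in 0.715% of all 32851 promoter windows, and TGATTGG alone was in 7.82% of them. The stretches below are written 5′ to 3′ on the strand of the gene, with the matches in capitals.
H2-Aa: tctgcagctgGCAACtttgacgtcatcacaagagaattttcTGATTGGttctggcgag
H2-Eb1: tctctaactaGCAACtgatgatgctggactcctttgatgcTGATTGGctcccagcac
H2-DMb1: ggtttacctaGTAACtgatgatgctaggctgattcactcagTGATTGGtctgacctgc
H2-Ob: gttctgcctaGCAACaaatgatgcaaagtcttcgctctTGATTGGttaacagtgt
They lie at chr17:34287857-34287914 on the minus strand for H2-Aa, and on the plus strand at chr17:34305766-34305822 for H2-Eb1, chr17:34153087-34153144 for H2-DMb1 and chr17:34238808-34238862 for H2-Ob. Between the matches lie 26 bases in H2-Aa and H2-DMb1, 25 in H2-Eb1 and 23 in H2-Ob. The stretch of H2-DMb1 lies just inside the deposited span of the gene, which starts at 34153072, and the other stretches lie before the deposited starts. The pair was also found in the windows of H2-Oa and H2-Eb2. In H2-DMb2 TGATTGG was found without the pair, and GNAAC by itself was not searched. Both windows of H2-DMa held neither TGATTGG nor the pair. They lie 12350 and 9664 bases before the start that was used for counting. A match is a description of letters and not a shown binding site.

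The class II genes differed widely in their ratio of TNF-α to control. Cd74, H2-Ab1, H2-Eb1 and H2-Aa were called higher in the TNF-α library, and H2-DMb1, H2-DMa and Ciita were not called. The 6 class II genes without Ciita drew 2962 reads with TNF-α against 454 without it, or 55.5 and 10.2 CPM (log2 ratio 2.45, 95% counting interval 2.30 to 2.59). Cd74 and H2-Ab1 made up 77.0% of these reads with TNF-α but 19.2% in the control. Without both genes, the other 4 drew 682 and 367 reads (log2 ratio 0.63, 0.45 to 0.82). A gene was called when it differed more than 2-fold and an exact binomial test on its reads had an adjusted p under 0.05, a test that compares 2 libraries and not the conditions. By this rule 4 of 7 members were called higher, beside 6.89% of the 20771 genes whose counts in both libraries added up to 10 or more, the genes tested. None of the 7 was called lower, beside 5.53% of all genes. Nothing is read from the count of 4, since the members were chosen with this contrast known. The median log2 ratio was 1.74 over the members and 0.0038 over all genes tested.

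**Figure D1:**
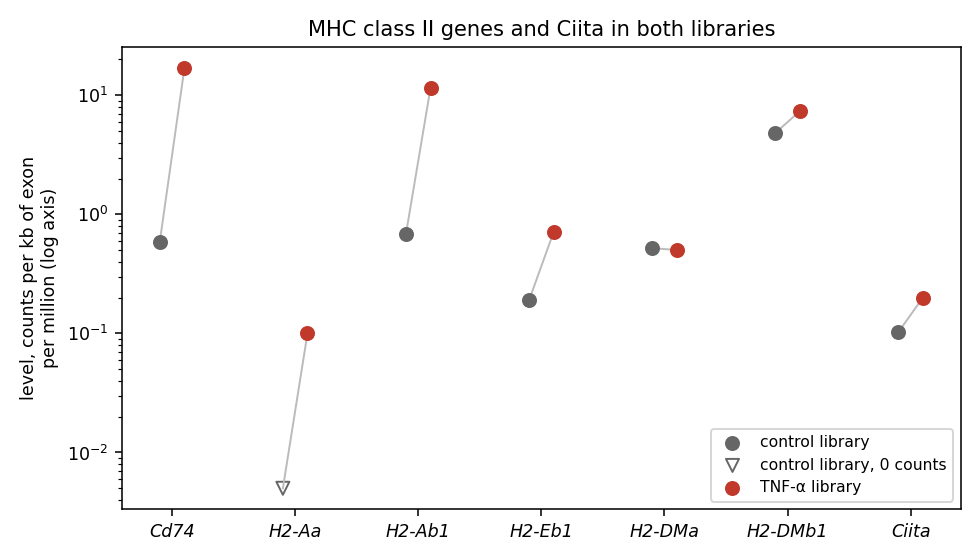
Level of each gene in the control (grey) and TNF-α (red) library, in RPKM (CPM per kb of exon) on a log axis; the open triangle marks H2-Aa in the control, which had 0 counts and is drawn at the foot of the axis. Cd74 and H2-Ab1 were at 0.589 and 0.685 in the control and at 16.8 and 11.6 with TNF-α, while H2-DMa was at 0.520 and 0.502.

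Cd74, the invariant chain, had the highest ratio of the 7. It lies on chromosome 18 of GRCm38 from 60803848 to 60812646, and 1267 reads were counted on its exons with TNF-α against 37 in the control. The log2 ratio was 4.77 (4.37 to 5.35), a 28.6-fold difference in CPM and rank 19 among the genes tested. Among the 15605 genes with at least 1 CPM in a library, its level per length moved from percentile 9.53 in the control to percentile 79.0 with TNF-α. Its exons overlap those of the microRNA gene Mir5107.

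H2-Ab1, the β chain of I-A, followed at rank 48. It lies on chromosome 17 from 34263209 to 34269418 and drew 1013 reads with TNF-α against 50 without it (log2 ratio 4.03, 3.67 to 4.52), a 16.9-fold difference in CPM. Cd74 and H2-Ab1 stood close to each other in both libraries. Per exon length, Cd74 was at 0.859 of H2-Ab1 in the control (0.546 to 1.34) and at 1.45 of it with TNF-α (1.34 to 1.58).

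H2-Aa, the α chain that pairs with H2-Ab1, was almost uncounted. On chromosome 17 from 34282744 to 34287827, 10 reads fell on it with TNF-α and 0 without it. It reached the minimum of 10 counts through the TNF-α library alone, so it had to differ to be compared. Against a floor of 3 counts in the control, its CPM was at least 2.78-fold higher with TNF-α. The counting interval of its log2 ratio began at 0.90 and had no upper end. Per exon length, H2-Ab1 stood at 116 times H2-Aa with TNF-α (62.8 to 243), and at a minimum of 19.1 times in the control when H2-Aa was set at the floor. The chains of I-A were thus counted at levels far apart within the same library. The labels do not name the mouse strain, and whether its H2-Aa sequence differs from the reference used for counting was not tested, so this ratio of counts is not shown to be a ratio of transcripts. In GENCODE M21, 0.514% of the 50-base stretches of the H2-Aa transcripts also occurred in transcripts of other genes, and none of those of H2-Ab1, H2-Eb1 or Cd74 did. No exon of another gene overlapped H2-Aa in the deposited annotation.

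H2-Eb1, the β chain of I-E, was called higher at a low level. It lies from 34305877 to 34316199 on chromosome 17 and drew 45 reads with TNF-α against 10 without it (log2 ratio 1.74, 0.90 to 3.06). Per exon length, H2-Ab1 was 3.62 times H2-Eb1 in the control (1.81 to 8.0) and 16.3 times with TNF-α (12.1 to 22.5). The α chain of I-E is annotated as the pseudogene H2-Ea-ps, since C57BL/6 mice, whose genome is the reference, do not express it. Its exons drew 2 reads with TNF-α and 0 without it. The labels of these libraries give the genotype only as wild type.

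The H2-DM genes lay far below Cd74 and H2-Ab1 in their ratios. H2-DMb1 (34153072 to 34160230) drew 583 reads with TNF-α against 319 without it and was not called (log2 ratio 0.61, 0.41 to 0.81). It was the class II gene with the most reads in the control, where it held 70.3% of the counts of the 6 genes, against 19.7% with TNF-α. H2-DMa (34135182 to 34139101) drew 44 and 38 reads (log2 ratio -0.05, -0.71 to 0.62). H2-DMb1 exceeded H2-DMa 9.28-fold per length in the control (6.61 to 13.4) and 14.6-fold with TNF-α (10.8 to 20.4). Relative to H2-DMb1, H2-Ab1 was at 0.142 in the control (0.103 to 0.192) and at 1.58 with TNF-α (1.42 to 1.75). Reads of H2-DMb1 are in part uncertain, because 22.7% of its 50-base stretches also occur in its copy H2-DMb2. H2-DMb2 drew 14 reads with TNF-α and 3 without it and was not called (log2 ratio 1.49, 0.12 to 4.40). In GENCODE M21, 8.43% of the stretches of H2-DMa also belong to Brd2, but no exon of another gene overlaps the deposited exons of H2-DMa.

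Ciita was counted at a low level in both libraries. It lies on chromosome 16 from 10488178 to 10527564 and drew 56 reads with TNF-α against 24 without it (log2 ratio 0.91, 0.25 to 1.72), just under the 2-fold threshold. Of the 7 members, Ciita was the nearest below this threshold and H2-Eb1 the nearest above it. Its level was 0.20 RPKM with TNF-α and 0.102 RPKM in the control, at percentiles 2.36 and 0.718 of the 15605 genes. GENCODE M21 lists 8 transcripts of Ciita with 8 distinct starts, and the counts sum over the exons of the gene, so the use of its alternative promoters cannot be told from them. The deposited exons of Ciita overlap those of Dexi, its neighbour on the opposite strand, with which 1.46% of its 50-base stretches are shared.

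By level per length, the order in the control was H2-DMb1, H2-Ab1, Cd74, H2-DMa, H2-Eb1, Ciita and H2-Aa. With TNF-α it was Cd74, H2-Ab1, H2-DMb1, H2-Eb1, H2-DMa, Ciita and H2-Aa. In the control, H2-Ab1 and Cd74 did not differ beyond the counting interval of their ratio. Other ranks rest on few reads as well, with 37 for Cd74 and 38 for H2-DMa in the control. With TNF-α, H2-Eb1 had 45 reads and H2-DMa 44, and the order of such pairs was not tested. All members stayed well below the class I heavy chain gene H2-K1, which was at 193 RPKM in the control and 635 with TNF-α. The highest member was H2-DMb1 in the control, at 4.82 RPKM, and Cd74 with TNF-α, at 16.8. H2-K1 exceeded H2-Ab1 282-fold per length in the control (214 to 380) and 54.8-fold with TNF-α (51.5 to 58.3). Not every class I gene lay above Cd74 with TNF-α, where B2m was at 168 RPKM and Psmb9 at 2.77.

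**Figure D2:**
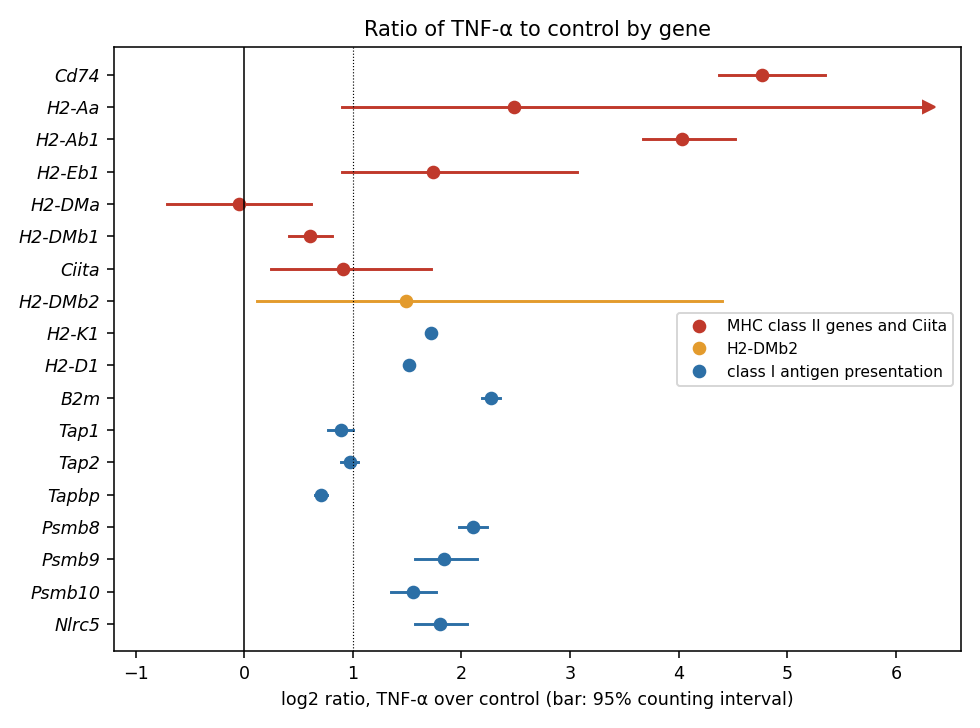
Log2 ratio of TNF-α to control for the 7 members (red), H2-DMb2 (orange) and 10 class I antigen presentation genes (blue); bars are 95% counting intervals, the arrow marks an interval with no upper end, and the dotted line marks a 2-fold difference. Members ranged from -0.05 for H2-DMa to 4.77 for Cd74, and the class I genes from 0.71 for Tapbp to 2.27 for B2m.

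The genes of the class II region differed in ratio from one neighbour to the next. Between 200 kb before H2-DMa and 200 kb after H2-Eb1 on chromosome 17 (33935182 to 34516199), the deposited counts cover 52 genes. Of these, 28 were tested, 7 were called higher and 1 lower, beside 6.89% and 5.53% of all genes tested. The higher ones were H2-Ab1, H2-Aa, H2-Eb1, H2-K1, the immunoproteasome subunit genes Psmb8 and Psmb9, and Gm20496. Among them, H2-Ab1, H2-Aa and H2-Eb1 are members chosen with this contrast known, so nothing is read from the count of 7. The log2 ratio was 2.10 for Psmb8 and 1.84 for Psmb9, whereas Tap1 and Tap2, which encode the peptide transporter and lie beside them, had 0.89 and 0.97. BC051142 alone was called lower, at -1.39. The span of Gm20496 overlaps Psmb8 and Tap2 on the opposite strand, and that of Psmb9 overlaps Tap1, so reads of these genes are uncertain. H2-Oa and H2-Ob, whose products form H2-O, an inhibitor of H2-DM, had 2 counts each with TNF-α and 0 without it. H2-Eb2 had 0 counts in both libraries. The matched letters printed above thus belong to windows of genes with 2 counts (H2-Ob), 10 counts (H2-Aa) and 583 counts (H2-DMb1) with TNF-α.

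**Figure D3:**
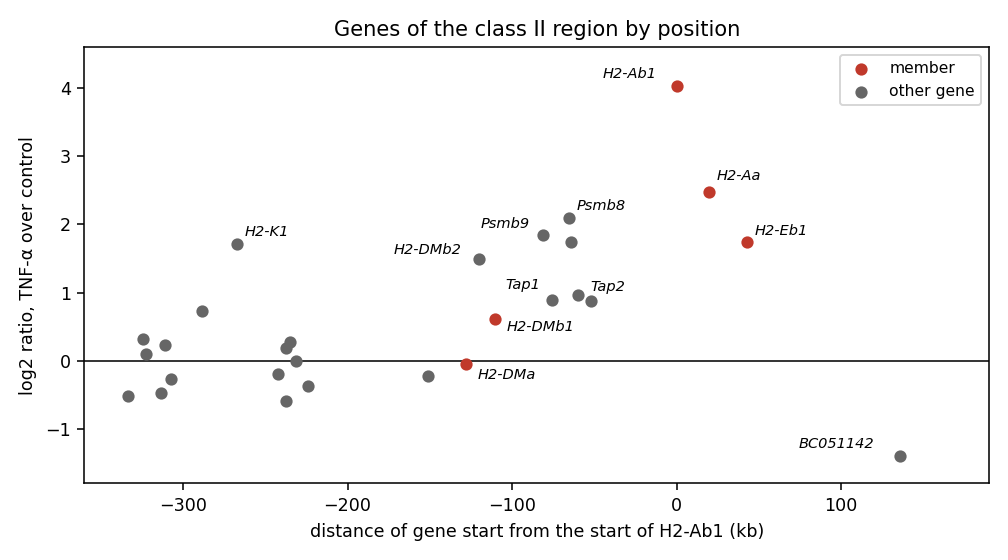
Log2 ratio of TNF-α to control for the 28 tested genes of the class II region against the distance of their start from the start of H2-Ab1 in kb; members are red and other genes grey. H2-DMa and H2-DMb1 sit at -0.05 and 0.61, and H2-Ab1, H2-Aa and H2-Eb1 at 4.03, 2.48 and 1.74, the value of H2-Aa depending on the prior count.

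The proteins that bring the Ciita product to class II promoters were not called at the transcript level. For Rfx5, Rfxap, Rfxank, Creb1, Nfya, Nfyb and Nfyc, 0 of 7 were called higher or lower, beside 6.89% and 5.53% of all genes tested. Their log2 ratios ranged from -0.18 for Rfxap to 0.25 for Creb1, with a median of 0.12. Rfx5, a DNA-binding subunit of RFX, drew 3020 reads with TNF-α against 2315 without it (log2 ratio 0.12, 0.05 to 0.20). Rfxank, another RFX subunit, stood at 0.04, and the NF-Y subunit genes Nfya, Nfyb and Nfyc at 0.09, 0.14 and 0.23.

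Genes of the interferon-γ route to Ciita were called in part. Of 10 listed, 9 were tested, 3 were called higher and 0 lower, beside 6.89% and 5.53% of all genes tested. The median log2 ratio was 0.76. Irf1, a transcription factor that acts on the Ciita promoter, drew 2923 reads with TNF-α against 718 without it (log2 ratio 1.76, 1.65 to 1.89). Irf8 was called with only 30 and 10 counts, at 1.19. The receptor genes Ifngr1 and Ifngr2 were at 0.96 and 0.76, the kinase gene Jak2 at 0.68 and Jak1 at 0.12, and Usf1 and Irf2 at 0.23 and 0.09. Ifng itself had 0 counts in both libraries, which at the floor of 3 counts allows up to 0.0562 CPM with TNF-α and 0.0673 CPM in the control.

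Endosomal processing genes gave 1 call among 12, a higher one, beside 6.89% of all genes tested that were called higher. Ctsc, a cysteine protease gene, had a log2 ratio of 1.71 (1.62 to 1.81), and the lowest was Ifi30, a thiol reductase gene of the endosome, at -0.38. Ctss, the protease that trims the invariant chain in professional antigen-presenting cells, drew 28 reads with TNF-α against 18 without it, whereas Ctsl had 13874 and 12426. The median of this list was 0.25. Of the genes for class II turnover, March8 was at 0.05 with 2980 and 2411 counts, March1 had 7 and 6 counts, and Cd83 had 4 and 2.

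Co-stimulatory, adhesion and checkpoint molecules accompany class II on antigen-presenting cells. Of 9 genes for such molecules, 5 were tested and 3 were called higher, beside 6.89% of all genes tested. They were Cd40 at 2.29 with 114 and 18 counts, Cd274, which encodes PD-L1, at 1.45 with 240 and 72 counts, and the adhesion gene Icam1 at 1.24 with 15121 and 5351 counts. Icosl was lowest at 0.47. The classical ligands of CD28 stayed near the floor, with 6 and 3 counts for Cd80 and 2 and 2 for Cd86. For class I antigen presentation, 7 of 10 genes were called higher, beside 6.89% of all genes tested. The median log2 ratio of the 10 was 1.63. Nlrc5, the class I counterpart of Ciita, drew 764 and 182 reads, at a log2 ratio of 1.80 (1.57 to 2.05).

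**Figure D4:**
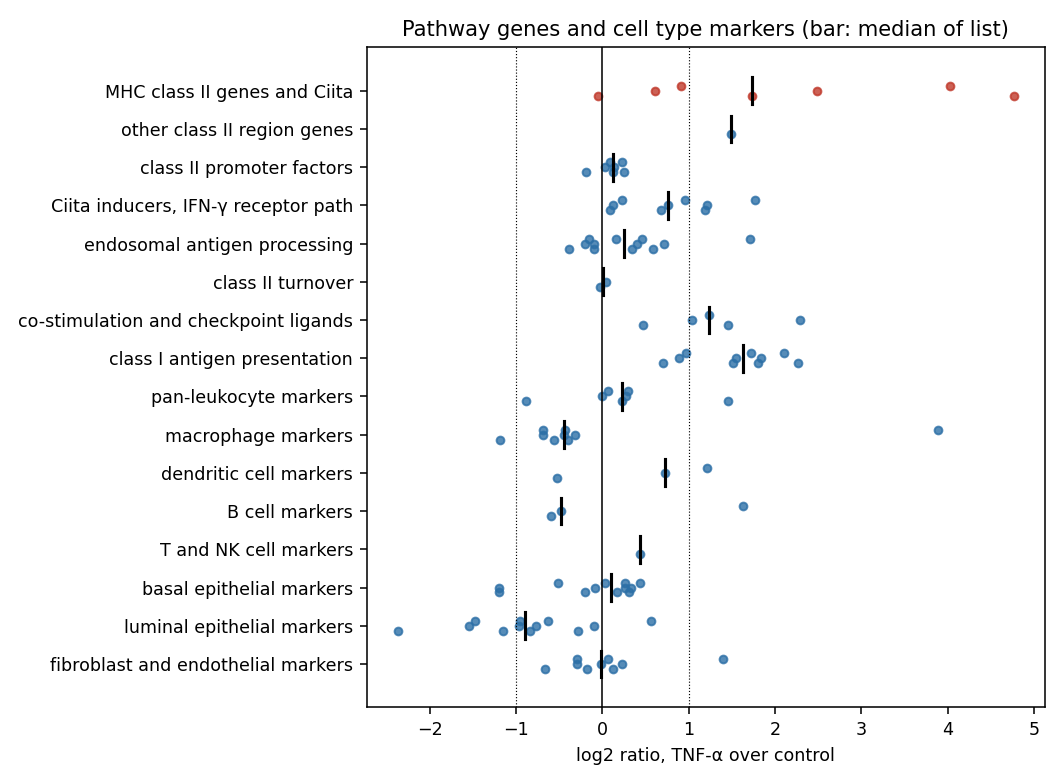
Log2 ratio of TNF-α to control for each tested gene of the class II members, the related pathway lists and the cell type marker lists; each point is a gene, black bars are list medians and dotted lines mark 2-fold. The promoter factors lie between -0.18 and 0.25, and most macrophage markers lie below 0, with Aif1 apart at 3.88. Aif1 and H2-Aa had 0 counts in the control, so their positions depend on the prior count.

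Markers of leukocytes, some of which carry class II at rest, were set beside the class II genes, since the labelled cells are epithelial. Of 52 leukocyte markers, 23 were tested, 2 of them were called higher and 0 lower, beside 6.89% and 5.53% of all genes tested. All 52 summed to 42.2 CPM with TNF-α and 40.1 CPM in the control, a log2 ratio of 0.08 (-0.01 to 0.17). Lcp1, Ikzf1 and Zbtb46 carried much of this sum, and without them the other 49 markers were at 15.05 and 17.28 CPM, on the other side of 0 with a log2 ratio of -0.20 (-0.34 to -0.05). By list, the sums with TNF-α and in the control were 15.6 and 16.2 CPM for pan-leukocyte, 9.71 and 13.1 for macrophage, 14.6 and 8.93 for dendritic cell, 0.637 and 0.516 for B cell, and 1.67 and 1.30 CPM for T and NK cell markers. In the dendritic cell list, Zbtb46 alone gave 749 of the 780 reads of the TNF-α library and 377 of the 398 of the other. In the T and NK cell list, Trbc2 alone gave 85 of the 89 reads with TNF-α and 52 of the 58 in the control. Ptprc, which encodes the leukocyte antigen CD45, had 38 and 26 counts. Several macrophage markers were counted in both libraries. Mertk drew 136 reads with TNF-α against 184 without it, Lyz2 drew 109 and 114, Csf1r 81 and 92, Cd68 75 and 83, and Itgam 40 and 50, and none of these was called. Other markers were near 0, with 2 and 0 counts for Adgre1, the gene of the macrophage antigen F4/80, 7 and 2 for Itgax, and 0 and 0 for Cd3e.

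The called markers were Aif1, with 30 counts against 0 (at least 8.35-fold higher against the floor of 3), and Vav1, with 30 against 8, a log2 ratio of 1.45 (0.49 to 2.98). Lowest among all leukocyte markers was C1qa with 3 and 8 counts. Of the 52 markers, 22 had at most 3 counts in both libraries, and 15 of the 52 were at 0 in the TNF-α library and 17 in the control. Aif1 and Vav1 were higher together with the class II genes, the macrophage markers just named were not, and the part of leukocyte RNA in the class II ratios was not tested. In bulk libraries, more cells that express a gene and more RNA per cell cannot be told apart.

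Epithelial markers were abundant in both libraries. Krt14, Krt5 and Trp63, which mark basal cells, were at 4871, 2752 and 214 CPM with TNF-α and at 5155, 2456 and 209 CPM in the control. The luminal keratin gene Krt8 was also abundant, at 1132 and 1213 CPM. Of 12 luminal markers, 0 were called higher and 4 lower, beside 6.89% and 5.53% of all genes tested. The 4 included Areg at -2.37 and the progesterone receptor gene Pgr at -1.54. Of 12 basal markers, 0 were called higher and 2 lower, Oxtr and Lgr5, beside 6.89% and 5.53% of all genes tested. Of 9 fibroblast and endothelial markers, 1 was called higher and 0 lower, beside the same shares. It was Dcn at 1.39, and Col3a1 was lowest at -0.66. The part of these differences in the class II ratios was not tested.

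Among the 13606 other genes with at least 200 counts, those with a log2 ratio nearest to that of the 6 summed class II genes were Dchs2 at 2.44, Tnfaip3 and Itga4 at 2.45, and Gbp2 and Adamts9 at 2.42. This likeness rests on 2 libraries only.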

How the data were processed

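RNA-seq of 1 control and 1 TNF-α library was analysed, although the series title calls it a microarray. The authors deposited raw read counts per gene with exon coordinates and summed exon lengths, not normalized. The submitters' processing notes name GRCm38 and mm10, and the aligner, counting tool and strand setting are not given in the sources used here. Of 47240 gene names shared with GENCODE M21, 90.9% had the same position. The totals were 44462275 counts in the control and 53487087 with TNF-α, so 10 counts are worth 0.224 and 0.187 CPM. Genes with 2 counts (2172 in the control) outnumbered those with 1 count (618), so reads of a pair may have been counted singly.

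Libraries were scaled by TMM in edgeR 4.0.16 (R 4.3.3) over genes with at least 10 counts summed, and log2 ratios used a prior count of 2. Intervals are 95% Clopper-Pearson intervals of the share of reads. Calls needed a fold over 2 and an adjusted p under 0.05 (exact two-sided binomial test with doubled smaller tail, Benjamini-Hochberg over all 20771 genes). Levels were compared per exon length, in RPKM with the TMM-scaled size. Python 3.11.15, scipy 1.17.1 and matplotlib 3.10.9 were used. The calling code was run on simulated data with changes planted only in genes with at least 200 counts and no spread between cultures. Calls at low counts were not tested by it. No p-value between conditions is given, since edgeR's quasi-likelihood test needs replicates. The members, the gene lists and the tests were chosen with earlier results of these data known. Named are all members, the other class II genes, all promoter factors, Ciita inducers and turnover genes, the highest and lowest tested gene of every other list, set defining markers, and the 5 genes nearest in ratio. Some genes that this rule names are not reported here by name, though they count in their lists. Other named genes, such as Ctss, Ctsl, Cd80, Cd86, Cd274, Icam1, Nlrc5, Zbtb46, Lcp1, Ikzf1, Mertk, Lyz2, Csf1r, Cd68, Itgam, Vav1, Pgr, Oxtr and the neighbours in the class II region, were chosen after their values were seen. Alternatives were total counts, DESeq2 (version 1.42.0) and upper quartile scaling, other filters, prior counts, folds and window sizes, halved counts, and an exact test in edgeR under an assumed spread between cultures.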

Additional observations from a re-analysis of the deposited data

How the results depend on the processing

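No paired analysis was possible because there were no replicates to pair, or to leave out, with a single culture on each side. The 4 calls among the members held under the scaling, prior count, no filter, no read test and other two-sided rule settings, the last added after the data were seen. With at least 1 CPM in a library 2 of 4 tested members were called, since H2-Aa, H2-Eb1 and H2-DMa were then not tested. With assumed coefficients of variation of 0.2 and 0.4 between cultures, 2 were called, Cd74 and H2-Ab1. Halving the counts left 3, as H2-Aa fell under 10 counts, a fold of 4 left 3 without H2-Eb1, and a fold of 1.5 gave 6 with H2-DMb1 and Ciita. The log2 ratio of H2-Aa depended on the prior count most, from 1.503 to 4.27, while Cd74 stayed between 4.68 and 4.82, H2-Ab1 between 3.96 and 4.07 and Ciita between 0.85 and 0.95. Related pathway genes were the other class II region genes and the promoter factor, Ciita inducer, endosomal, turnover, co-stimulation and class I lists. Of these 56 genes, 46 were tested and 14 were called higher, 7 of them from the class I list, beside 6.89% of all genes tested. At a fold of 4, 3 were called higher, and at an assumed coefficient of variation of 0.4, 0 were. H2-DMb2 was called only without the read test or under its other two-sided rule. Over all genes, 1431 were called higher, 2337 at a fold of 1.5, 540 at a fold of 4, 836 with at least 1 CPM, and 745 and 91 with assumed coefficients of variation of 0.2 and 0.4. Called lower were 1148, and under these settings 1987, 342, 658, 523 and 54. The depth leaves H2-Aa, H2-Eb1, H2-DMa and Ciita with wide counting intervals.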
